A study of Homo sapiens with 9 samples.

Results

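The genes described here are SRF itself and 9 genes of the actin filament system that are known targets of SRF or parts of actin filaments. They are ACTB, ACTG1, TPM1, TPM2, TPM4, CNN2, MYL9, CALD1, VCL and SRF, listed by name, and they make up 10 of the 14981 genes that could be named in at least 1 library. All 10 were measured in every library. Poly-A RNA was sequenced from WM3248, an established line of human melanoma cells, after 24 h with ARN22089. ARN22089 is a small molecule made to block the binding of CDC42-family GTPases to their effectors. The libraries at 0 µM received the vehicle, DMSO, and those of the other groups received 4 µM or 6 µM, with 3 libraries per dose. All groups share 1 cell line. No description states whether libraries of the same dose were separate cultures, so the spread that p-values rest on may be technical.

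Serum response factor (SRF) is a transcription factor that binds a short element called the CArG box. Its cofactors MRTFA and MRTFB are held back by actin monomers and are set free when monomers enter filaments, so that SRF activity follows the state of actin. Many of the targets encode actin itself or proteins that bind, bundle or contract actin filaments, and in melanoma cells this system underlies migration and cell shape.

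The CArG box is shown first because it is the element that SRF is known to bind, and binding to these genes was not measured here. The 250 bases upstream of each start site with a RefSeq promoter entry (GRCh38.p14) were searched for the CArG box, which reads the same on both strands. Of the 10 genes, 8 matched a RefSeq promoter by symbol (not ACTB and MYL9), and SRF, ACTG1, CNN2 and TPM4 held a box. Over all genes with such a promoter, 394 of 27305 (1.44%) held a box, and over all promoter windows 407 of 35116 (1.16%). The box lies in capitals below, with 35 bases on each side where the window allows.
SRF, chr6:43171204-43171268, plus strand, boxes starting 30 and 10 bases upstream of the start site: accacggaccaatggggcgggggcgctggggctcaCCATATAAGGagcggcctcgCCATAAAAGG
ACTG1, chr17:81512849-81512928, minus strand, box starting 94 bases upstream: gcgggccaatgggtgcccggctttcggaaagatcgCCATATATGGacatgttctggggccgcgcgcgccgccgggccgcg
CNN2, chr19:1026484-1026563, plus strand, box starting 89 bases upstream: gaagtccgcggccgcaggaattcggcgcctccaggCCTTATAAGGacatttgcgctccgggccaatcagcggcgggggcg
TPM4, chr19:16067330-16067409, plus strand, box starting 173 bases upstream of the distal start site: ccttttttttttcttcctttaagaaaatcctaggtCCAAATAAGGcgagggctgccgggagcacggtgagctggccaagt

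Among these 4 genes the log2 difference between 6 and 0 µM was 0.10 for SRF, 0.00 for ACTG1, -0.25 for TPM4 and -0.86 for CNN2, and none passed the test described below. The TPM4 box belongs to the distal start site, at base 16067538, from which no library assembled a TPM4 transcript. No box in these letters was found in the windows of CALD1, TPM1, TPM2 and VCL, which says nothing about sites elsewhere. The only TPM1 window lay upstream of the internal start site, at base 63048489. The distal TPM1 start site, whose first exon held 79.3% of TPM1 FPKM at 0 µM, was not searched.

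Levels are given in FPKM (fragments counted per unit of transcript length and of library size), summed over the transcripts assembled for a gene. Differences are log2 differences of FPKM + 1 with their SE, from limma fitted on the 12301 genes whose mean reached 1 FPKM, and adjusted p-values are those of limma over all these genes. Coordinates are GRCh38 spans of the RefSeq genes. Reads per library are unknown. Relative depth, with the median library at 1, was lowest for replicate 3 at 4 µM (0.802) and highest for replicate 1 at 6 µM (1.34). Sums of FPKM were 587999 to 689699 in 8 libraries and 1061112 in replicate 3 at 0 µM, where 2 short single-exon transcripts took 38.7% of the sum. Of 8 melanocyte lineage markers all were assembled, MLANA in 8 of the 9 libraries (summed level 406 to 1389 FPKM at 0 µM, 1246 to 2359 at 4 µM and 1385 to 2054 at 6 µM), and 4 of 4 leukocyte and 3 of 4 keratinocyte markers were listed at 0 in every library. None of 6 fibroblast markers was at 0 in every library, with sums of 16.8 to 62.8, 29.9 to 52.0 and 30.5 to 54.9 FPKM in the order of the doses, most of it COL1A2 and LUM. The smooth muscle markers CNN1 and DES were listed at 0 in every library and the summed smooth muscle markers were at 35.8 to 46.4, 36.4 to 67.8 and 24.0 to 44.4 FPKM in the order of the doses. The part of these differences in the results was not tested.

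None of the 10 genes passed limma's test at either dose (adjusted p below 0.05), where 8 of 12301 genes (0.065%) passed at 4 µM and 39 (0.317%) at 6 µM. With the replicate number as a block these counts were 2 and 4, and again no member passed. These are bulk libraries, in which less RNA of a gene per cell and fewer cells that make it cannot be told apart. At an unadjusted p below 0.05, 1 member was lower at 4 µM (VCL), where 4.61% of all genes were lower, and 2 members were lower at 6 µM (TPM1 and CNN2), where 9.62% were. At 6 µM the difference was negative for 8 members, against 53.6% of all genes, and the median difference was -0.33 for the members and -0.03 for all genes tested. At 4 µM it was negative for 6 members, against 50.3% of all genes, with medians of -0.07 and 0.00. Rescaling each library to TPM (a fixed sum) moved the median of all genes to 0.32 at 4 µM and 0.24 at 6 µM. The difference then turned positive for ACTB, TPM4 and CALD1 at 6 µM and for TPM1, TPM4, CNN2 and MYL9 at 4 µM. No member passed between 6 and 4 µM either, where 7 genes (0.0569%) did and CNN2 alone was lower at an unadjusted p below 0.05, against 2.93% of all genes.

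**Figure D1:**
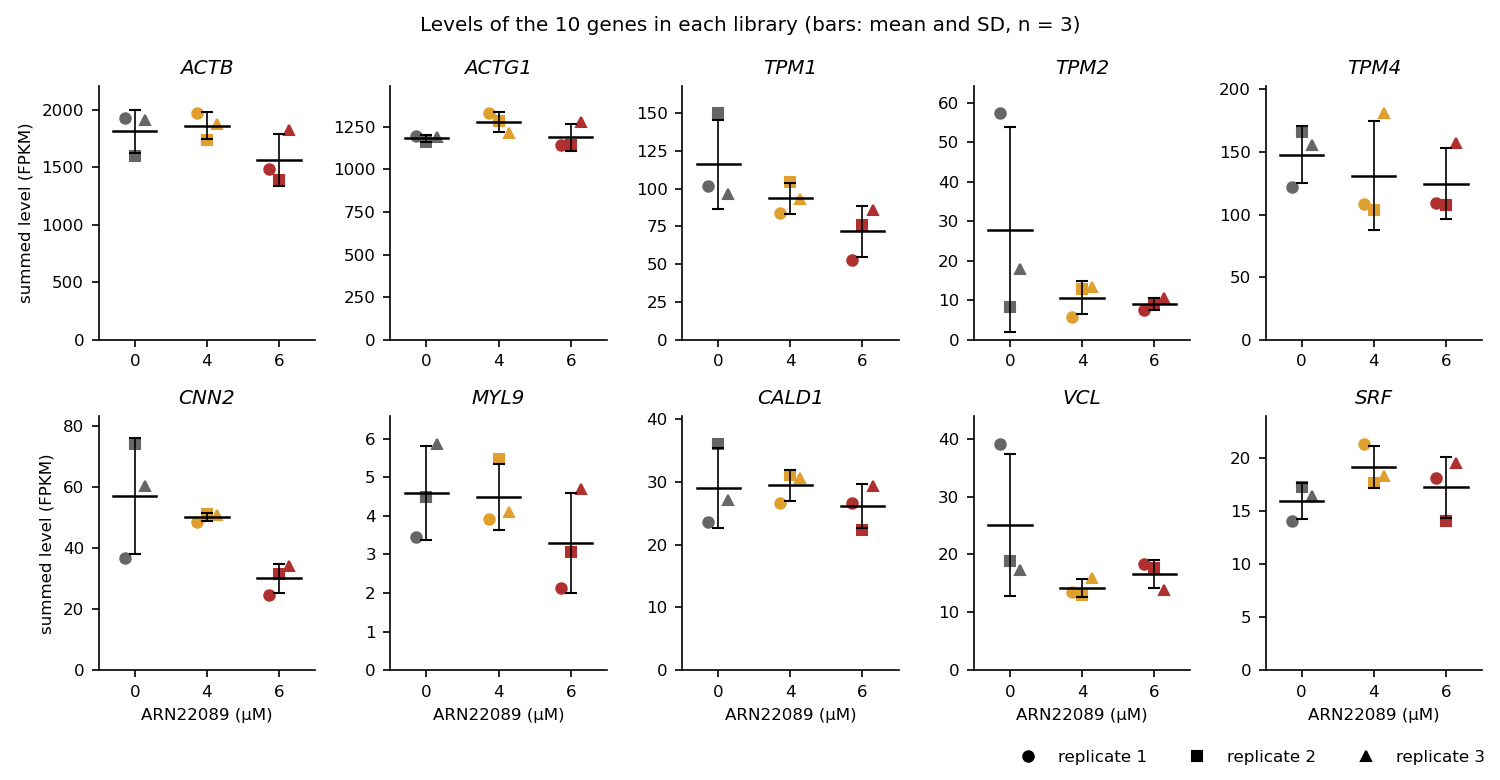
Summed level in FPKM (vertical axis, linear from 0) of each of the 10 genes by dose of ARN22089 in µM (horizontal axis); each point is a library, its shape the replicate number, and bars give mean and SD of 3 libraries. CNN2 and TPM1 at 6 µM lie below all vehicle libraries, while ACTG1 and SRF do not.

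The libraries at 6 µM did not behave alike. Replicate 3 was the highest of the 3 for 9 of the 10 genes, all but VCL, and for all 10 by the shared exon value described with VCL, whereas 34.9% of all genes tested had their highest summed value at 6 µM in that library. Descriptions of the libraries give those of the same number a shared tag that looks like a day. Within the numbers 1, 2 and 3 the median difference of the members between 6 and 0 µM was -0.44, -0.36 and -0.12, against -0.05, -0.02 and 0.00 for all genes. ACTB, TPM1, CNN2, MYL9 and VCL were lower at 6 µM within all 3 numbers, which makes 5 of 10 members against 23.0% of all genes. For ACTB in number 1 this rests on a shortened vehicle assembly, described with the actins.

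SRF (chr6:43171269-43181506) was at 14.0, 17.3 and 16.4 FPKM in the libraries at 0 µM, at 21.3, 17.7 and 18.3 FPKM at 4 µM and at 18.1, 14.0 and 19.5 FPKM at 6 µM. All libraries at 4 µM lay above all vehicle libraries, as they did for 9.91% of all genes, and those at 6 µM overlapped them. The log2 difference was 0.25 ± 0.16 at 4 µM (limma, adjusted p = 0.60) and 0.10 ± 0.16 at 6 µM (adjusted p = 0.78). The SRF gene is itself a known SRF target, with both boxes printed above.

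The actins were the most abundant members. ACTB (chr7:5527148-5530601), the gene of cytoplasmic beta-actin, was at 1927, 1595 and 1914 FPKM at 0 µM, at 1970, 1740 and 1876 FPKM at 4 µM and at 1483, 1391 and 1821 FPKM at 6 µM. The groups overlapped, and the log2 difference was 0.04 ± 0.15 at 4 µM and -0.22 ± 0.15 at 6 µM (limma, adjusted p = 0.94 and 0.50). ACTG1 (chr17:81509971-81512799), the gene of cytoplasmic gamma-actin, was at 1196, 1160 and 1191 FPKM at 0 µM, at 1329, 1284 and 1214 FPKM at 4 µM and at 1140, 1143 and 1276 FPKM at 6 µM. Its libraries at 4 µM lay above all vehicle libraries, as for 9.91% of all genes, with a log2 difference of 0.11 ± 0.12 (limma, adjusted p = 0.75). By the consensus exon value described below these groups overlapped. At 6 µM the summed difference was 0.00 ± 0.12 (limma, adjusted p = 0.99). Both genes have near-identical copies elsewhere in the genome, so their values are uncertain where reads were split between copies.

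The ratio of ACTB to ACTG1 was 1.53 ± 0.135 (SD, n = 3) with vehicle, 1.46 ± 0.0969 with 4 µM and 1.31 ± 0.106 with 6 µM, and the library ratios of the doses overlapped. Within each of the 3 replicate numbers the ratio was lower at each higher dose, at 1.61, 1.48 and 1.30 in number 1, at 1.38, 1.35 and 1.22 in number 2 and at 1.61, 1.55 and 1.43 in number 3, an order seen after the fact and not tested. In replicate 1 at 0 µM the last ACTB exon was assembled over 95 bases, against 745 to 749 in the other libraries. By the consensus exon value, which counts uncovered bases as 0, ACTB was at 1241 FPKM there and ACTG1 at 1196. By that value the order did not hold in number 1, and the ACTB difference at 6 µM was -0.0028. Together the actins took 0.568% ± 0.0228 of the FPKM summed over named genes at 0 µM, 0.569% ± 0.0355 at 4 µM and 0.508% ± 0.0788 at 6 µM.

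Tropomyosins are rod-shaped proteins that lie along actin filaments and govern which other proteins reach them. TPM1 (chr15:63042747-63071915) was at 102, 150 and 96.5 FPKM at 0 µM, at 83.6, 104 and 93.4 FPKM at 4 µM and at 53.0, 75.8 and 86.2 FPKM at 6 µM. All libraries at 6 µM lay below all vehicle libraries, as did those of CNN2 alone among the other members, against 14% of all genes, while those at 4 µM overlapped the vehicle libraries. The log2 difference was -0.28 ± 0.23 at 4 µM (limma, adjusted p = 0.66) and -0.69 ± 0.23 at 6 µM (adjusted p = 0.18, unadjusted p = 0.0166).

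TPM2 (chr9:35681993-35690056) was at 57.4, 8.40 and 18.0 FPKM at 0 µM, at 5.86, 12.8 and 13.4 FPKM at 4 µM and at 7.43, 9.26 and 10.5 FPKM at 6 µM. Replicate 1 at 0 µM stood far above the 8 other libraries, which ranged from 5.86 to 18.0 FPKM. With that library the log2 difference was -0.98 ± 0.60 at 4 µM and -1.13 ± 0.60 at 6 µM (limma, adjusted p = 0.58 and 0.36). Without it the differences were -0.27 and -0.42.

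TPM4 (chr19:16067538-16103002) was at 122, 166 and 155 FPKM at 0 µM, at 108, 104 and 181 FPKM at 4 µM and at 109, 107 and 158 FPKM at 6 µM. The highest library was replicate 3 at 4 µM, and the groups overlapped at both doses. Its log2 difference was -0.21 ± 0.26 at 4 µM and -0.25 ± 0.26 at 6 µM (limma, adjusted p = 0.78 and 0.64).

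TPM3, the fourth human tropomyosin gene, is no member but was the most abundant, with 281, 197 and 248 FPKM at 0 µM, 196, 185 and 228 FPKM at 4 µM and 176, 170 and 196 FPKM at 6 µM. All libraries at 6 µM lay below those at 0 µM, with a log2 difference of -0.41 ± 0.16 (limma, adjusted p = 0.25). The sum over TPM1 to TPM4 was 534 ± 24.7 FPKM (SD, n = 3) with vehicle, 438 ± 67.4 with 4 µM and 386 ± 56.1 with 6 µM. Within that sum the share of TPM1 was 21.8% ± 6.01, 21.7% ± 3.79 and 18.5% ± 2.85 in the order of the doses, and that of TPM4 27.9% ± 5.39, 29.4% ± 5.04 and 32.1% ± 2.71. These shares overlapped between doses.

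Alternative first exons decide between the long and the short tropomyosins, and a pair of alternative 76-base internal exons and alternative last exons add further forms. Transcripts of different libraries were taken as the same isoform where all introns matched. Of 27144 intron chains tested by limma, 20 (0.0737%) passed at 4 µM and 51 (0.188%) at 6 µM. None of the 11 tested chains of TPM1, TPM2 and TPM4 was among them, and 2 and 3 of the 11 had an unadjusted p below 0.05, against 4.5% and 7% of all chains.

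The leading TPM1 form held 67.6% of the gene's FPKM, used the distal first exon and the upstream 76-base exon, and had the introns of the GENCODE transcript TPM1-206. It was at 80.3, 88.3 and 74.2 FPKM at 0 µM, at 48.3, 83.5 and 51.9 FPKM at 4 µM and at 36.2, 56.4 and 51.3 FPKM at 6 µM. All libraries at 6 µM lay below those at 0 µM. The log2 difference was -0.76 ± 0.27 at 6 µM (limma, adjusted p = 0.60 over all chains, unadjusted p = 0.0199) and -0.44 ± 0.27 at 4 µM (adjusted p = 0.69). The second form, which starts at the internal first exon (TPM1-208), held 18.0% of the gene's FPKM. It was listed at 0 in replicates 1 and 2 at 4 µM, in which other chains from the same first exon were assembled, at 21.8 and 20.6 FPKM. A further form, with the distal first exon and the downstream 76-base exon (TPM1-220), held 9.38% and was assembled in 4 libraries.

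Summed over forms, TPM1 transcripts with the distal first exon were at 80.3, 123 and 74.2 FPKM at 0 µM, 61.8, 83.5 and 70.9 FPKM at 4 µM and 36.2, 56.4 and 63.3 FPKM at 6 µM. Those with the internal first exon were at 21.4, 26.9 and 22.3 FPKM, 21.8, 20.6 and 22.5 FPKM, and 16.8, 19.5 and 22.9 FPKM in the same order. The share of the distal first exon was 79.3% ± 2.59 (SD, n = 3) with vehicle, 76.7% ± 3.20 with 4 µM and 72.1% ± 3.25 with 6 µM. It was lower by 1.13 percentage points per µM, as a slope of -1.13. In an exact two-sided permutation test of that slope over 9 libraries (1680 assignments of the doses) p was 0.0280, and 0.0979 after Benjamini-Hochberg adjustment over 7 tropomyosin shares, so it did not pass. The share was lower at each higher dose within each of the 3 replicate numbers, from 79.0% through 73.9% to 68.3%, from 82.1% through 80.2% to 74.3% and from 76.9% through 75.9% to 73.5%. With doses permuted only within a number (replicate block, 216 assignments) the exact p was 0.0185 and the adjusted p 0.081. Counting only transcripts whose introns equal a GENCODE chain gave a slope of -0.90 (exact permutation, adjusted p = 0.85). Leaving out each library in turn gave slopes from -1.38 to -0.84 and adjusted exact p-values from 0.025 to 0.25, with the lowest without replicate 2 at 4 µM.

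**Figure D2:**
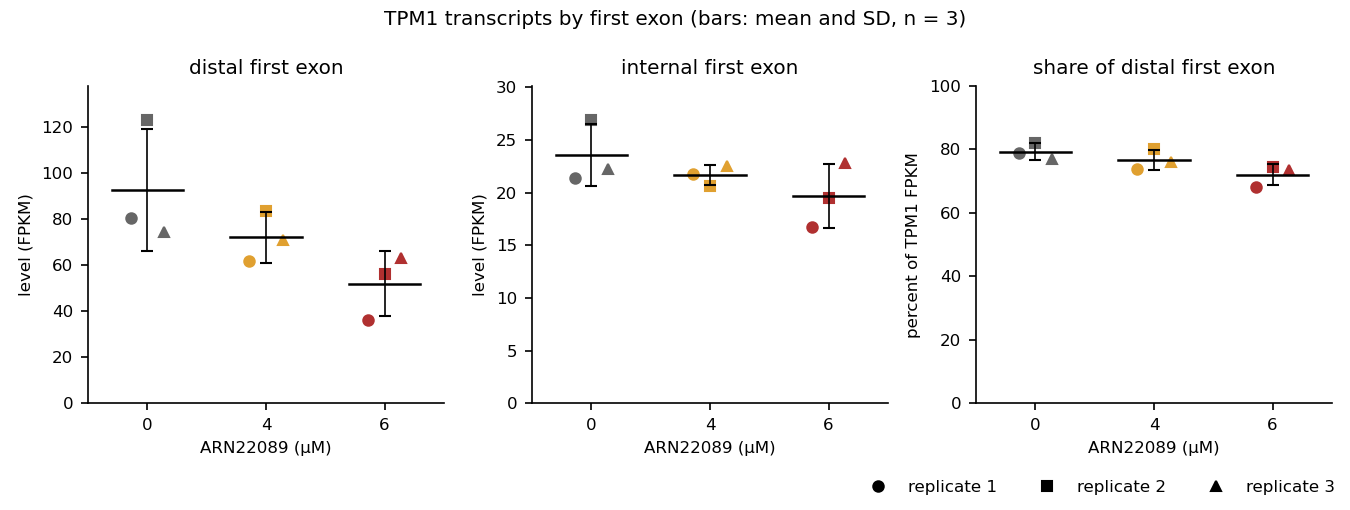
Level in FPKM of TPM1 transcripts with the distal and with the internal first exon, and the share of the distal first exon in percent of TPM1 FPKM, by dose in µM; points are libraries, shapes replicate numbers, bars mean and SD of 3 libraries. Distal transcripts range from 74.2 to 123 FPKM at 0 µM and from 36.2 to 63.3 FPKM at 6 µM, and internal ones from 21.4 to 26.9 and from 16.8 to 22.9 FPKM.

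TPM2 forms varied from library to library. The form with the downstream 76-base exon (introns of TPM2-201) held 45.0% of the gene's FPKM and was listed at 0 in replicates 1 and 2 at 6 µM. A chain that holds both 76-base exons matched no GENCODE chain. It was at 0, 2.37 and 0 FPKM at 0 µM, 3.72, 6.64 and 1.99 FPKM at 4 µM and 5.95, 6.81 and 5.93 FPKM at 6 µM. Its log2 difference was 2.27 ± 0.63 at 6 µM (limma, adjusted p = 0.48 over all chains). A second such chain, with another last exon, held 6.49% of the gene's FPKM, at 9.28 FPKM in replicate 3 at 0 µM alone. Others were at 1.66 FPKM in replicate 2 at 0 µM and at 2.58 FPKM in replicate 3 at 4 µM. All transcripts with both exons held 33.2% ± 28.8 (SD, n = 3), 49.8% ± 14.8 and 69.9% ± 12.3 of TPM2 in the order of the doses (exact permutation p = 0.0452, adjusted p = 0.106). The share of TPM2 on transcripts with the downstream exon alone was 52.0% ± 3.71 (SD, n = 3), 44.1% ± 6.63 and 30.1% ± 12.3 in the order of the doses, a slope of -3.42 points per µM (exact permutation p = 0.0179, adjusted p = 0.0979). The shares with both exons, with the downstream exon alone and with the upstream exon alone make up the whole, so their slopes are not separate results. The downstream share was lower at each higher dose within all 3 numbers, and with doses permuted within a number the exact p was 0.0231 (adjusted p = 0.081). With only transcripts whose introns equal a GENCODE chain the slope turned to 2.30 (adjusted exact p = 0.83). Another TPM2 form, with the upstream 76-base exon, was at 25.4 FPKM in replicate 1 at 0 µM, the library in which TPM2 stood out, at 2.44 FPKM in replicate 3 at 4 µM and at 0 in the other libraries.

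TPM4 was assembled in 2 forms. The form that starts at the internal first exon (TPM4-218) made up all TPM4 FPKM in 7 libraries. In replicate 3 at 0 µM and replicate 2 at 6 µM it held 16.0% and 15.5%, and the rest, 131 and 90.8 FPKM, lay on a chain that begins at the next exon (TPM4-233). The slope of that share on dose was 0.98 points per µM (exact permutation p = 1).

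CNN2 (chr19:1026608-1039065) encodes calponin 2, which binds actin filaments and restrains myosin. Its level was 36.6, 74.3 and 60.5 FPKM at 0 µM, 48.7, 51.1 and 50.8 FPKM at 4 µM and 24.7, 31.7 and 34.0 FPKM at 6 µM. At 6 µM all libraries lay below all others, those at 4 µM included, and 7.31% of all genes were apart in that way between 6 and 4 µM. By the consensus exon value the groups overlapped, with a difference of -1.30 ± 0.51 at 6 µM (limma, adjusted p = 0.16). The last exon was assembled over 70 to 171 bases in replicate 2 at 0 µM, 1 at 4 µM and 1 and 3 at 6 µM. In the other libraries it had 1440 to 1474 bases. The summed log2 difference was -0.13 ± 0.25 at 4 µM (limma, adjusted p = 0.88) and -0.86 ± 0.25 at 6 µM (adjusted p = 0.14, unadjusted p = 0.00794), the smallest unadjusted p among the members. It passed only without replicate 1 at 0 µM, the lowest vehicle library, with a difference of -1.14 and an adjusted p of 0.0457 (0.153 to 0.336 without each of the other libraries). Between 6 and 4 µM the difference was -0.73 ± 0.25 (adjusted p = 0.96, unadjusted p = 0.0175). Most CNN2 RNA was in 1 form, and a minor form without a 117-base exon was assembled in replicates 2 and 3 at 4 µM, at 7.34 and 6.30 FPKM, and in replicate 2 at 6 µM, at 4.09 FPKM.

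MYL9 (chr20:36541519-36551447), a regulatory light chain of non-muscle and smooth muscle myosin II, had the lowest level of the members. It was at 3.45, 4.48 and 5.87 FPKM at 0 µM, at 3.92, 5.48 and 4.09 FPKM at 4 µM and at 2.13, 3.07 and 4.70 FPKM at 6 µM. The groups overlapped, and the log2 difference was -0.02 ± 0.27 at 4 µM and -0.40 ± 0.27 at 6 µM (limma, adjusted p = 0.99 and 0.47).

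CALD1 (chr7:134711499-134970729) encodes caldesmon, which binds actin, tropomyosin and myosin. It was at 23.7, 36.1 and 27.2 FPKM at 0 µM, at 26.6, 31.1 and 30.6 FPKM at 4 µM and at 26.7, 22.3 and 29.3 FPKM at 6 µM, with overlapping groups and log2 differences of 0.04 ± 0.18 and -0.13 ± 0.18 (limma, adjusted p = 0.95 and 0.74). Smooth muscle makes a longer caldesmon through a longer form of an internal exon. The 403-base form of that exon was in 21 of 23 assembled CALD1 transcripts and the 1090-base form in 0. Transcripts from the downstream start, whose first splice site is at 134891673, were at 14.1 ± 2.68 FPKM (SD, n = 3), 15.4 ± 6.01 and 14.0 ± 3.96 in the order of the doses. Those from the start with its splice site at 134779749 were at 12.7 ± 5.49, 3.44 ± 3.01 and 8.78 ± 3.18 FPKM, with 0 in replicate 3 at 4 µM. That library had 9.94 FPKM on the start with its splice site at 134711597, which was at 2.18 ± 2.01, 4.99 ± 4.97 and 0 FPKM in the order of the doses. Replicate 2 at 4 µM had 16.8 FPKM and replicate 1 at 6 µM 9.97 FPKM on transcripts that began further downstream and were assembled in no other library.

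VCL (chr10:73998116-74121363) encodes vinculin, which links actin filaments to integrin adhesions and cadherin junctions. Its summed level was 39.2, 18.9 and 17.2 FPKM at 0 µM, 13.5, 13.1 and 16.0 FPKM at 4 µM and 18.3, 17.6 and 13.9 FPKM at 6 µM. In replicate 1 at 0 µM the gene was assembled as 2 pieces that do not overlap, at 16.2 and 23.0 FPKM, which the sum adds up, and in replicates 1 and 2 at 6 µM a second transcript covered only the 3' part. Summed, VCL was lower at 4 µM with a log2 difference of -0.69 ± 0.29 (limma, adjusted p = 0.45, unadjusted p = 0.0424) and groups that did not overlap, as for 8.38% of all genes, and at 6 µM the difference was -0.48 ± 0.29 (adjusted p = 0.42). Without replicate 1 at 0 µM these differences were -0.33 and -0.12.

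A second value, chosen after these assemblies were seen, averages FPKM over only those exonic bases covered in every library in which the gene was assembled. For VCL these are 5227 bases. All transcripts over those bases count, whatever their gene or strand, but pieces that do not overlap are not added up. By this shared exon value VCL was at 19.5, 18.9 and 17.2 FPKM at 0 µM, at 13.5, 13.1 and 16.0 FPKM at 4 µM and at 11.5, 12.3 and 13.9 FPKM at 6 µM. The libraries of both doses lay below all vehicle libraries, against 10.8% of all genes at 4 µM and 18.9% at 6 µM. VCL then fell at 6 µM, with a log2 difference of -0.53 ± 0.12 (limma, adjusted p = 0.0469), and had a difference of -0.37 ± 0.12 at 4 µM (adjusted p = 0.25). With this value 511 of 12300 genes (4.15%) passed at 6 µM, so that 1 member in 10 is read against that share. In further runs on this value, also chosen after seeing the data, the call was lost with the replicate block (adjusted p = 0.0557), after rescaling to TPM (0.643) and without 7 of the 9 libraries in turn (0.0705 to 0.164), and held without replicate 3 at 4 µM (0.0468) or at 6 µM (0.0473). Within the numbers 1, 2 and 3 the difference at 6 µM was -0.71, -0.58 and -0.29.

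**Figure D3:**
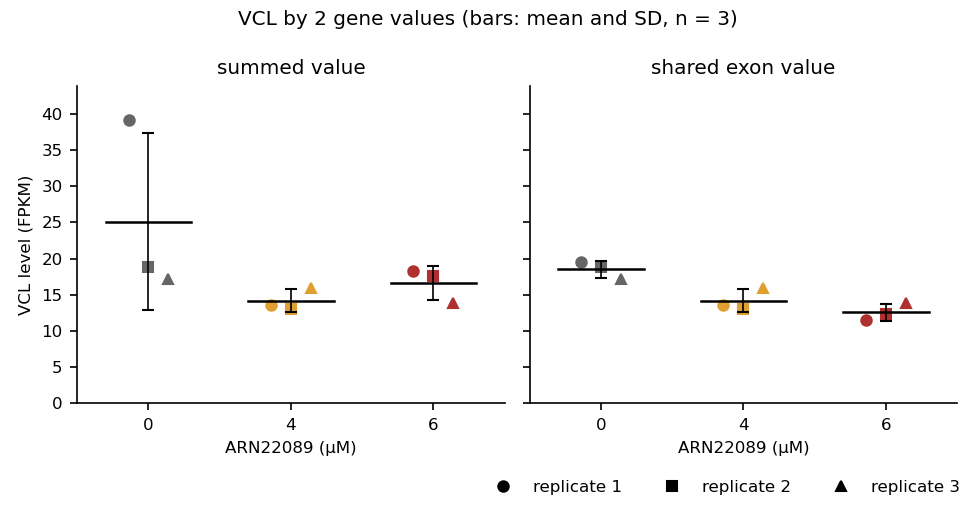
VCL level in FPKM (vertical axis, from 0) by dose in µM, as the sum over assembled transcripts and as the shared exon value; points are libraries, shapes replicate numbers, bars mean and SD of 3 libraries. Replicate 1 at 0 µM is at 39.2 FPKM in the sum and at 19.5 FPKM by the shared exon value.

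By the shared exon value no other member passed. TPM1 had a difference of -0.70 ± 0.22 at 6 µM (limma, adjusted p = 0.11) and CNN2 of -0.87 ± 0.24 (adjusted p = 0.075), and TPM1, CNN2 and VCL had unadjusted p-values below 0.05 at 6 µM, against 15.2% of all genes lower. ACTB, ACTG1, MYL9 and SRF had the same differences by both values to 2 decimals.

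**Figure D4:**
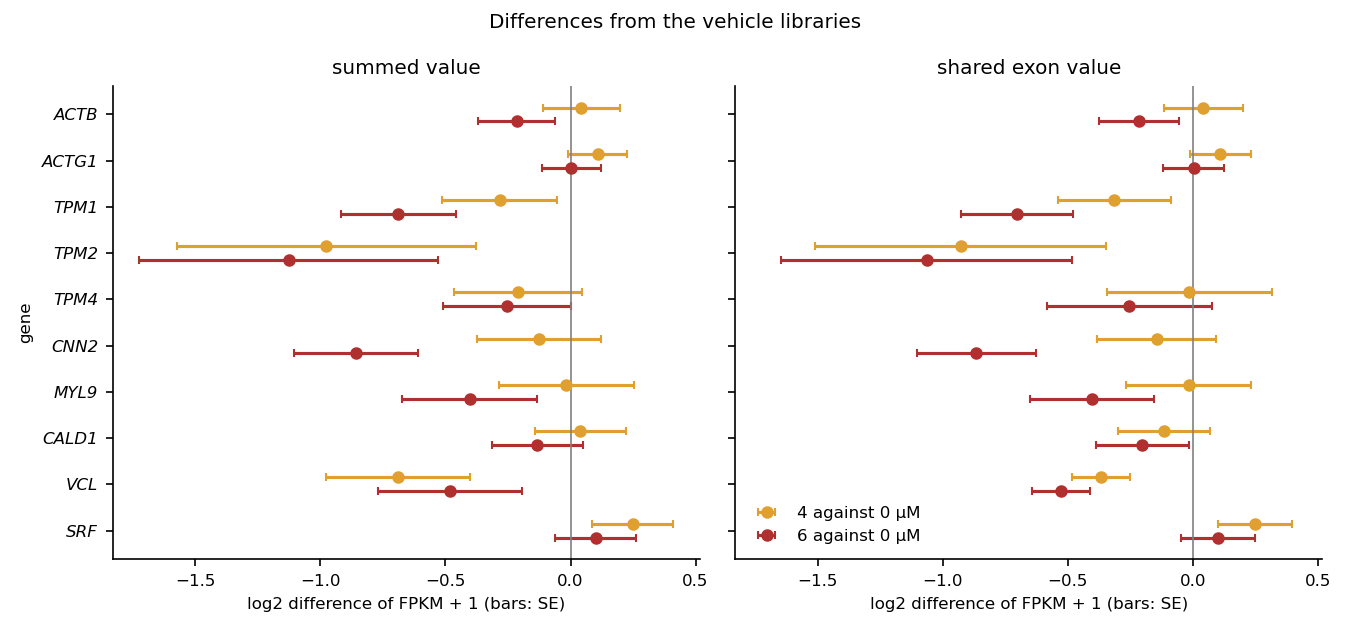
Log2 difference of FPKM + 1 (horizontal axis) of each gene at 4 and 6 µM against 0 µM, from limma, by the summed and by the shared exon value; bars are SE. At 6 µM 8 of 10 differences are negative, and the widest bars are those of TPM2.

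Other genes of the system, in lists chosen with earlier results of these data known, numbered 115, of which 104 were tested. Their counts are therefore no independent support for those of the members. At 4 µM none passed limma's test. At an unadjusted p below 0.05, 7 were lower (6.73% of those tested, against 4.61% of all genes) and 5 higher (4.81% of those tested). At 6 µM 1 passed, and 21 were lower and 2 higher at that level, which is 20.2% and 1.92% of those tested, against 9.62% and 8.11% of all genes. Their median difference at 6 µM was -0.17. After rescaling to TPM the split turned, with 4 lower (ANKRD1, CCN1, CCN2 and ROCK2) and 13 higher, 3.85% and 12.5% of those tested against 2.12% and 13.0% of all genes, and none passed. With median-of-ratios factors 16 were lower and 4 higher, 15.4% and 3.85% of those tested against 8.55% and 9.26% of all genes. By the shared exon value 5 of 103 passed, where 4.15% of all genes did. By that value 27 were lower and 3 higher, 26.2% and 2.91% of those tested against 15.2% and 9.43% of all genes. Neither IER2 nor SSH2, the genes higher by the summed value, was among the 3. Unless another value is named, the counts by unadjusted p in each list below are those of the summed value. They are read against the 9.62% of all genes lower and 8.11% higher at 6 µM. Some genes are in several lists.

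Among other targets of the MRTF cofactors, 6 of 23 tested genes were lower at 6 µM by unadjusted p and none was higher. CCN1, which encodes a secreted matrix protein and is also a target of YAP, was at 32.3, 28.0 and 21.1 FPKM at 0 µM, at 13.8, 17.4 and 12.3 FPKM at 4 µM and at 4.11, 7.93 and 8.76 FPKM at 6 µM. The groups of all 3 doses were apart. CCN1 fell at 6 µM, with a log2 difference of -1.86 ± 0.27 (limma, adjusted p = 0.0477). The call was lost with the replicate block (0.0645), after rescaling to TPM (0.118) and with only the 2 doses compared in the fit (0.109). It was also lost without 8 of the 9 libraries in turn (0.0552 to 0.112), but held without replicate 3 at 6 µM (0.0453). The call held by the shared exon value (limma, adjusted p = 0.0234) and by the consensus exon value described below (0.0271). It also held with median-of-ratios factors (0.0480), a pseudocount of 0.1 (0.0486), no filter (0.0482) and the filter raised to a mean of 10 FPKM (0.0414).

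Of the targets that SRF shares with the TCF cofactors, 1 of 8 tested was lower (MCL1) and 1 higher (IER2) at 6 µM by unadjusted p. The difference was negative for 3 of these 8 (median 0.60), and for 18 of 23 other MRTF targets (median -0.33). JUNB was listed at 0 in replicate 1 at 0 µM. NR4A1 was at 50.6 ± 13.0, 62.8 ± 11.0 and 68.8 ± 3.34 FPKM (SD, n = 3) in the order of the doses. Its log2 difference was 0.47 ± 0.20 at 6 µM (limma, adjusted p = 0.28). By the shared exon value it alone in this list was higher (limma, unadjusted p below 0.05). MCL1, which encodes a survival factor of the BCL2 family, was at 84.0 ± 2.21 FPKM (SD, n = 3) with vehicle, 60.0 ± 3.94 with 4 µM and 53.7 ± 3.42 with 6 µM (log2 difference -0.64 ± 0.12 at 6 µM, limma, adjusted p = 0.0617). It passed by the shared exon value (-0.64, limma, adjusted p = 0.0282), by the consensus exon value (0.0287) and with the filter raised to a mean of 10 FPKM (0.0414). After rescaling to TPM its adjusted p was 0.51. IER2 was listed at 0 in replicates 1 and 2 at 0 µM and was at 21.0 FPKM in replicate 3, and all treated libraries lay between 18.0 and 25.4 FPKM. Its summed difference of 2.92 at 6 µM was 0.028 by the shared exon value (limma, unadjusted p = 0.84) and 0.018 by the consensus exon value. Among the SRF cofactors, ELK3 was at 20.4 ± 0.544, 17.1 ± 2.52 and 14.2 ± 3.72 FPKM and SCAI, a known repressor of MRTF, at 3.12 ± 1.86, 1.23 ± 0.548 and 0.953 ± 0.177 FPKM in the order of the doses, with adjusted p-values by limma of 0.22 and 0.28 at 6 µM. The difference of SCAI at 6 µM was -0.95 summed and -0.14 by the shared exon value (limma, unadjusted p = 0.59).

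Of the myosin II genes and their regulators, 3 of 11 were lower at 6 µM by unadjusted p. ROCK2, a kinase that raises the phosphorylation of myosin light chains, was at 17.1 ± 0.730 FPKM (SD, n = 3), 10.9 ± 2.87 and 7.74 ± 2.04, with a log2 difference of -1.07 ± 0.22 at 6 µM (limma, adjusted p = 0.0678). Its relative ROCK1 was at 11.1 ± 2.06, 8.70 ± 1.26 and 7.40 ± 0.616 FPKM (-0.52 ± 0.17, limma, adjusted p = 0.18). Among the other actins, ACTG2 was at 10.1 ± 5.01, 10.4 ± 2.48 and 7.21 ± 2.27 FPKM.

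Crosslinkers and adhesion partners of vinculin had 5 of 19 tested genes lower and none higher at 6 µM by unadjusted p. Of these 5, ACTN1, ENAH and LIMA1 are also counted among the 6 lower MRTF targets above. After rescaling to TPM 0 were lower and 2 higher (FLNA and LCP1), and with median-of-ratios factors 2 were lower and 0 higher. By the shared exon value 6 were lower and 2 higher (EVL and LCP1). ACTN4, an alpha-actinin that crosslinks filaments, was at 237, 209 and 242 FPKM at 0 µM, at 181, 173 and 173 FPKM at 4 µM and at 115, 156 and 146 FPKM at 6 µM. Its groups did not overlap between any doses, with a log2 difference of -0.73 ± 0.15 at 6 µM (limma, adjusted p = 0.0662), which passed by the shared exon value (-0.67, adjusted p = 0.0443). ACTN1 was at 183 ± 30.3, 157 ± 6.48 and 127 ± 29.1 FPKM.

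Genes of filament turnover had 3 of 23 tested lower and 1 higher at 6 µM. CAP1, which recycles actin monomers, was at 148 ± 22.9, 120 ± 13.5 and 98.6 ± 7.10 FPKM (SD, n = 3), with a log2 difference of -0.58 ± 0.15 at 6 µM (limma, adjusted p = 0.11). The gene counted as higher, SSH2, a phosphatase that activates cofilin, had a summed difference of 1.83 ± 0.44 at 6 µM that was -0.07 by the shared exon value. The Arp2/3 complex, which nucleates branched filaments, had 2 of 9 genes lower, with ARPC1A at 126 ± 10.5, 111 ± 4.62 and 92.9 ± 10.9 FPKM and ARPC4 at 89.4 ± 12.0, 81.9 ± 6.26 and 69.0 ± 8.66 FPKM. Of the formins, which nucleate and elongate unbranched filaments, 1 of 12 was lower, DIAPH1, at 32.9 ± 10.9, 22.8 ± 6.93 and 17.5 ± 7.31 FPKM. FMNL2 was at 32.5 ± 11.7, 19.9 ± 5.84 and 19.2 ± 4.77 FPKM. Of the calponin and caldesmon relatives in smooth muscle, 3 of 8 were tested and none had an unadjusted p below 0.05 at 6 µM by the summed value, with CNN3 at 95.1 ± 20.4, 92.7 ± 9.11 and 83.9 ± 16.5 FPKM and SMTN at 29.5 ± 3.41, 32.0 ± 6.51 and 24.3 ± 5.52 FPKM. SMTN had a difference of -0.42 by the shared exon value (limma, unadjusted p = 0.0073) and of 0.0068 after rescaling to TPM.

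The mean of the 10 genes, each centred and scaled over the 9 libraries, was lowest in replicates 1 and 2 at 6 µM (-0.93 and -0.96 SD) and between 0.11 and 0.47 SD in the other 7, replicate 3 at 6 µM included (0.20). MYL9, CNN2, TPM1 and ACTB followed the mean of the other 9 genes with a Pearson r of 0.72, 0.72, 0.71 and 0.68 over these libraries. VCL had an r of -0.20 by its summed value, which adds up its pieces, and of 0.61 by its shared exon value. Among 6633 other genes whose mean reached 10 FPKM, the 5 with the most similar pattern over the 9 libraries were PEX26 (r = 0.98), SNX27 (0.98), SARNP (0.98), CDCA4 (0.97) and LMNB2 (0.97). SARNP was at 14.3 and 12.7 FPKM in replicates 1 and 2 at 6 µM and between 68.1 and 85.6 FPKM in the other libraries. These coefficients describe the libraries, which the genes share, and were not tested.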

How the data were processed

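Deposited were 9 transcript assemblies, 1 per library, with an FPKM per transcript that Cufflinks computed for the authors; the attribute column that holds it is text. The submitters' processing notes list Cufflinks 2.2.1, TopHat2 2.1 with Bowtie2 2.2.7, SAMtools 1.9, Trimmomatic and R 4.0.3, and the build GRCh37. All 93 distinct introns assembled for the 10 genes lie within RefSeq GRCh38 spans and 0 lie at a GENCODE GRCh37 position, although 91 have a GENCODE intron length, so coordinates are given as GRCh38. Read counts were not used, and no interval that needs depth is given.

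Spliced transcripts were named after the overlapping RefSeq gene whose GENCODE intron lengths they matched most often on the same strand, in Python 3.11.15 with pandas 2.3.3. This named 185675 of 193769 spliced transcripts (95.8%). A single-exon transcript was used where 50% of it lay in 1 gene never assembled with introns. This naming was widened once after first calls were seen, to follow an earlier processing of these files. Strandedness of the libraries is not given in the sources used, so antisense and overlapping genes are uncertain.

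A gene's value was its summed FPKM, with 0 where nothing was assembled, which can be a failed assembly. Genes whose mean reached 1 FPKM were fitted as log2(FPKM + 1), a scale that understates changes of low genes, in limma 3.58.1 (R 4.3.3) over all 9 libraries, with a variance trend, 6 residual degrees of freedom and Benjamini-Hochberg adjustment at 0.05. The fit was tested on simulated data. Shares were tested by exact permutation, since 3 against 3 libraries cannot give a p below 0.1. The alternatives tried were another gene value, TPM or median-of-ratios scaling, pseudocount 0.1, other filters, replicate block, 2 doses only and each library left out. Same-numbered libraries share a day-like tag in the labels, so the number entered as a block in an alternative but not in the fit reported. Correlations of their deviations from the dose means were -0.02 to 0.12. Libraries that differed in dose and number had -0.086 to 0.031. The same-numbered pairs at 4 and 6 µM, at 0.093, 0.11 and 0.12, all lay above that range. The fit reported does not take up this likeness within numbers.

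The members and lists were chosen with earlier results of these data known. The genes described were the 10 members, TPM isoforms with at least 5% of a gene's FPKM and the 5 genes most alike the members' mean. From each list the genes that passed were described, or else the 2 with the smallest p at 6 µM. The minor CNN2 and CALD1 forms, NR4A1 and JUNB were added after their values were seen.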

Additional observations from a re-analysis of the deposited data

How the results depend on the processing

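Depth in reads is unknown, 3 libraries per dose limit the test, and assembly errors enter every summed value. None of the 10 genes passed at 4 µM or between the treated doses under any alternative. At 6 µM 1 passed by the shared exon value and 1 by the consensus exon value (VCL both times), and 1 without replicate 1 at 0 µM (CNN2). The consensus value takes bases covered in at least 50% of the libraries in which the gene was assembled. Counts over all genes at 6 µM, 39 as reported, were 16 after rescaling to TPM, 4 with the replicate block, 68 with median-of-ratios factors, 95 at a mean of at least 10 FPKM, 17 with 2 doses, 531 by consensus and 511 by shared exon value, and 15 to 76 with a library left out. At 4 µM, 8 became 2 with the block and 2 at a mean of at least 10 FPKM, and 3 to 27 with a library left out. Between 6 and 4 µM, 7 became 4 after rescaling to TPM, 1 with the block, 3 with median-of-ratios factors, 1 at a mean of at least 10 FPKM and 3 by consensus value, and 2 to 14 with a library left out. Tropomyosin isoforms passing ranged from 0 to 1, 0 to 0 and 0 to 1 in the 3 comparisons.

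After rescaling to TPM the sign turned at 4 µM for TPM1 (0.067), TPM4 (0.14), CNN2 (0.22) and MYL9 (0.29), and at 6 µM for ACTB (0.086), TPM4 (0.045), CALD1 (0.16), SMTN (0.0068), CNN3 (0.12), TPM1 isoform 2 (0.038) and TPM4 isoforms 1 (0.030) and 2 (0.074). By consensus value it turned for MYL9 (0.029) and CALD1 (-0.13) at 4 µM, ACTG1 (-0.017) and SSH2 (-0.0061) at 6 µM, and TPM2 (0.19), TPM4 (0.31) and VCL (-0.17) between 6 and 4 µM. By shared exon value it turned for CALD1 (-0.11) at 4 µM, SSH2 (-0.071) at 6 µM and VCL (-0.16) between 6 and 4 µM. The cause was not tested. Full GENCODE chains alone turned the share slopes of the TPM2 downstream exon (2.30) and last exon (1.81 to -9.52).

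With each library left out in turn, none of the following kept 1 sign. At 4 µM the ranges were -0.047 to 0.091 for ACTB, -0.41 to 0.089 for CNN2, -0.17 to 0.14 for MYL9, -0.091 to 0.20 for CALD1, -1.77 to 0.59 for TPM2 isoform 3 and -0.17 to 1.18 for TPM4 isoform 1. At 6 µM they were -0.050 to 0.031 for ACTG1, -0.26 to 0.032 for CALD1, -1.72 to 1.23 for TPM1 isoform 3, -1.08 to 0.71 for TPM4 isoform 1 and -2.35 to 2.17 for TPM4 isoform 2. Between 6 and 4 µM they were -0.50 to 0.038 for TPM2 and -0.22 to 0.21 for TPM4. Share slopes ranged from -0.95 to 1.04 for the TPM1 downstream exon, -3.71 to 0.10 for the TPM2 upstream exon, -0.81 to 3.65 for the TPM2 last exon and -4.37 to 5.25 for the TPM4 first exon. The slope of the TPM1 first exon kept its sign, from -1.38 to -0.84.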
